A study of Mus musculus with 9 samples.

Results

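The mitochondrial transcription and RNA decay factors were 10 nuclear genes, Tfam, Tfb2m, Polrmt, Tefm, Polg, Lrpprc, Slirp, Pnpt1, Supv3l1 and Ppargc1a, out of 31167 genes in the expression table. They were chosen by name, because the messengers encoded by the mitochondrial genome are lower in the libraries with the Egr1 plasmid. The values that led to the choice were those of the mitochondrial messengers, and the comparisons with the plasmid libraries are therefore given as a description. For them no p-value is printed, counts of genes that met the call rule stand beside the share over all genes, and nothing is read from those counts. Bulk RNA was sequenced from primary renal tubular epithelial cells (TECs) of C57BL/6 mice in 3 groups of 3 libraries. The labels give no treatment for Sham cells. H/R cells, a culture model of ischemia and reperfusion, spent 6 h at 1.0% oxygen in glucose-free medium and then 18 h of reoxygenation in complete medium. EGR1OV cells received a plasmid that expresses Egr1, a zinc finger transcription factor, from the CMV promoter. The study's methods describe plasmid transfection some hours before H/R, while the labels name H/R for the H/R group alone. A figure legend of the study lists H/R, the Egr1 plasmid and no treatment as alternatives for H/R, EGR1OV and Sham cells. EGR1OV cells are thus described there with the plasmid and without H/R. The time from transfection to harvest is not settled by the sources used here. No group that received an empty plasmid was among those compared, so the plasmid with its transfection and the Egr1 protein cannot be told apart. The labels do not say whether the libraries of a group came from separate cultures or animals, so p-values measure the spread between these libraries, which may be technical.

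Mitochondrial DNA carries the genes for 13 messengers, 2 ribosomal RNAs and a set of transfer RNAs, and almost everything needed to copy and read it is encoded in the nucleus. The RNA polymerase Polrmt starts transcription together with the packaging and promoter-bending factor Tfam and the promoter-melting factor Tfb2m, and Tefm keeps it elongating. Long polycistronic transcripts from both strands are then cut into single RNAs, which the Lrpprc and Slirp complex stabilises and the exonuclease Pnpt1 with the helicase Supv3l1 degrades. Polg copies the DNA itself, and Ppargc1a (PGC-1alpha) is a coactivator that drives expression of many of these genes. Tubule cells are known for a high content of mitochondria, since reabsorption of solutes uses much ATP.

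The 2 members that differed most between EGR1OV and Sham were Pnpt1 and Tfb2m, and the bases before their start sites are shown so that the letters searched for can be seen in place. Sequences are from RefSeq on build GRCm38.p6, which listed all 10 members, and are written 5′ to 3′ on the strand of the gene, ending with the base before the RefSeq start site. Capitals mark the letters GAAANGAAA, a pair of GAAA repeats with 1 base between them. That spelling was chosen after the Pnpt1 sequence had been seen. The Pnpt1 stretch is chr11:29130494-29130743, plus strand. The Tfb2m stretch is chr1:179546277-179546366, minus strand, and it stops before the first exon of the neighbouring gene Cnst on the other strand.
Pnpt1: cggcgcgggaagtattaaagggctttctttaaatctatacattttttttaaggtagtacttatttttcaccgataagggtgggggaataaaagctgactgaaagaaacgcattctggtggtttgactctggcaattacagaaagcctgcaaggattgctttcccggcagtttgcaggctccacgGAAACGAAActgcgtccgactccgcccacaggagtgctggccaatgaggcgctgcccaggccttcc
Tfb2m: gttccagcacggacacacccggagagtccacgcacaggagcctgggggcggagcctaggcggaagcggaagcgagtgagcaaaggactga

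In the 250 bases before the start site, searched on both strands, GAAANGAAA was found in 2.68% of 32851 RefSeq promoters and in 1 of the 10 members, Pnpt1, at bases -66 to -58. The letters searched for as the interferon-stimulated response element were GAAANNGAA. They were found in 7.13% of promoters and in Ppargc1a alone among the members, so not in Pnpt1 in that exact spelling. The bases GGAAACGAA in the Pnpt1 stretch, which overlap its capitals, differ from these letters by 1 base. The search took exact letters only, so a missing match does not show that a promoter lacks the element. Letters of the Egr1 site, GCGNGGGCG, were in 4.70% of promoters and in 0 of the 10 members. Letters of the site of Nrf1, a nuclear factor known to act on genes of mitochondrial transcription, GCGCANGCG, were in 5.16% of promoters and in Supv3l1 alone among the members. Letters bound by ETS factors such as Gabpa, CCGGAAG, were in 6.91% of promoters and in 5 of the 10 members, Tfam, Polrmt, Tefm, Polg and Slirp. A match is a description of the letters and shows no binding.

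The ETS letters of 4 measured members are shown in capitals with the bases around them, because they were the only letters searched that several members shared. All 4 genes lie on the minus strand, and CTTCCGG in Polrmt is the same word read on the other strand. The positions are chr10:71238075-71238101 for Tfam, chr10:79746608-79746634 for Polrmt, chr11:80142154-80142172 for Tefm and chr7:79466295-79466321 for Polg. They lie before the RefSeq start sites. In the annotation of the expression values Tfam, Tefm and Polg start further upstream, at 71238280, 80142175 and 79466362, so their stretches lie inside the genes there.
Tfam: ctgccgcggaCCGGAAGtccgggcttc
Polrmt: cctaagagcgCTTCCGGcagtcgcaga
Tefm: gcacacgaaaCCGGAAGtt
Polg: aggacctcacCCGGAAGtccctctgca

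Levels are in FPKM, fragments counted per exon length and per depth of the library, so they can be compared between genes per length. Depth ran from 16183591 to 18383945 reads per library, as recovered from the FPKM steps. Egr1, read as a check of the labels, lay between 6.09 and 6.91 FPKM in the Sham libraries, between 7.48 and 8.57 after H/R and between 40.1 and 45.7 with the plasmid. Tubule markers summed to 2001 ± 20.7, 1877 ± 42.1 and 1329 ± 53.6 FPKM in Sham, H/R and EGR1OV (SD, n = 3 each). The sum was carried by the keratins Krt8 (1014, 941 and 618 FPKM in the same order) and Krt18 (685, 606 and 412 FPKM). Krt19 at 83.3, 85.5 and 43.7 FPKM, Cdh16 at 24.3, 26.4 and 19.6 and Lrp2 at 3.60, 3.44 and 1.22 were also lower in EGR1OV. Epcam at 76.2, 96.0 and 100.4 FPKM, Cdh1 at 86.2, 90.9 and 101.5 and Pax2 at 14.6, 14.3 and 19.1 were not lower. Pax8 was at 13.1, 12.3 and 13.5 FPKM. Of 10 tested markers 4 had an estimate above 0 against Sham and 6 below. Among markers of single tubule segments, Umod was at 0 in all libraries, Slc34a1, Slc12a1 and Slc12a3 had means under 1 FPKM in every group, and Aqp1 was at 1.23 to 1.43 FPKM in Sham, 1.08 to 1.29 in H/R and 0.275 to 0.489 in EGR1OV. Leukocyte markers summed to 142 ± 2.11, 120 ± 3.47 and 23.9 ± 2.32 FPKM in the same order, and all 7 that were tested were lower in EGR1OV than in Sham. Endothelial markers summed to 9.44, 9.64 and 6.91 FPKM, and the 5 fibroblast markers to 2972, 2772 and 1161 FPKM. Nearly all of the fibroblast sum was Acta2, a contractile actin not limited to fibroblasts, at 2947, 2743 and 1131 FPKM, and most of the rest was Col1a1 at 21.1, 25.8 and 25.7 FPKM. In bulk RNA fewer cells of a type and less RNA per cell cannot be told apart, and the part of these shifts in the values of the members was not tested.

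In Sham TECs the factors lay within a narrow range of levels, apart from Ppargc1a and Slirp. Tfb2m was the highest at 11.0 ± 0.606 FPKM, followed by Pnpt1 at 9.68 ± 0.276 and Lrpprc at 9.34 ± 0.336 (SD, n = 3 each), and the ranges of Pnpt1 and Lrpprc overlapped. Polrmt and Supv3l1 came next at 7.25 and 7.05 FPKM with overlapping ranges. Tfam, Tefm and Polg lay between 5.38 and 5.77 FPKM, and each overlapped its neighbour. In H/R the order was the same down to Lrpprc, although Tfb2m and Pnpt1 now overlapped, and Polrmt lay below Supv3l1. In EGR1OV Pnpt1 stood alone at the top with 29.9 FPKM, Lrpprc came next with 9.45, and Tfb2m had moved down into a run from Supv3l1 to Polg in which each gene overlapped the next.

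**Figure D1:**
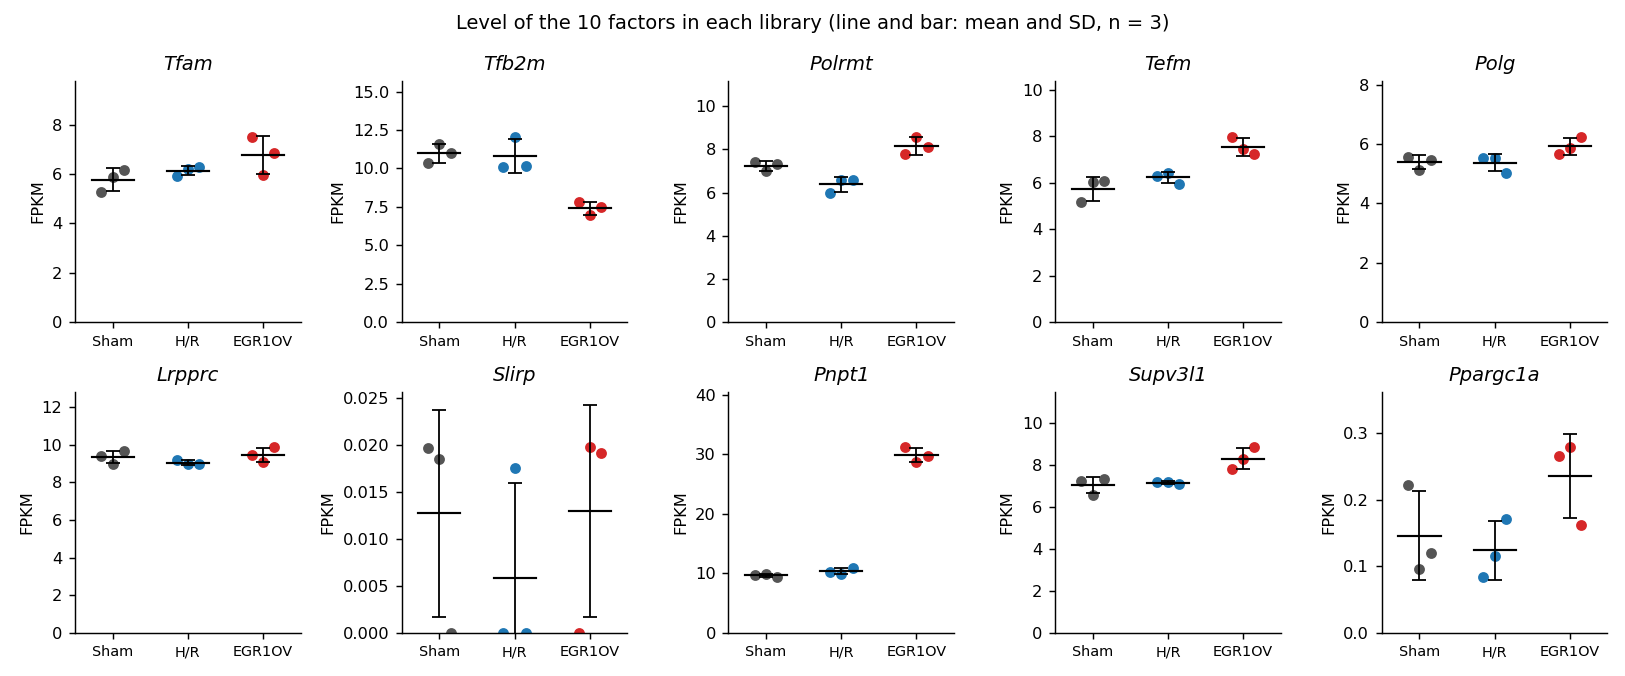
Level in FPKM of each of the 10 factors in the 9 libraries, with points for single libraries, a line for the group mean and a bar for the SD (n = 3). The EGR1OV libraries stand at 28.7 to 31.2 FPKM for Pnpt1, above 9.37 to 10.9 in the other 6 libraries, and at 6.96 to 7.80 for Tfb2m, below 10.1 to 12.1, and each panel has its own axis from 0.

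Ppargc1a, the coactivator of mitochondrial biogenesis, was almost without signal. Its 3 Sham libraries were at 0.221, 0.0957 and 0.119 FPKM, its H/R libraries at 0.0844, 0.116 and 0.171, and its EGR1OV libraries at 0.265, 0.278 and 0.162. The groups overlapped, and these values rest on 9 to 30 reads per library, too few to show a difference of this size. Slirp, the RNA-binding partner of Lrpprc, had 0 or 1 read in each library. Of its 3104 annotated exon bases 97.8% also belong to Snw1 and Alkbh1 on the opposite strand, and it is not stated whether the counting used strand, so its level cannot be judged from these values. Both genes were under the filter of a mean of 0.5 FPKM, and the other 8 members entered the fit.

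Whether hypoxia with reoxygenation moves these factors was tested by setting H/R against Sham, and 0 of the 8 passed the test. Values were fitted as log2(FPKM + 1) with limma over 13985 genes, and a call needed both a limma adjusted p below 0.05 and a difference of 1.2-fold or more. Of all genes 4.25% were called, 1.6% higher and 2.65% lower (224 and 370 genes, which became 314 and 228 after median-ratio scaling), and 11.7% had an adjusted p under 0.05 at any fold. Of the 8 members 0 were called by either rule, and the same fit on recovered reads (limma voom) also called 0. An unadjusted limma p under 0.05 was reached by 1 of the 8, and by 3920 of the 13985 genes. The median change was 0.01 against -0.03 over all genes, and 4 estimates were above 0 and 4 below. For 7 of the 8 the 95% interval of the change lay within 0.26 in both directions, the 1.2-fold threshold as applied on the log2(FPKM + 1) scale. That scale understates changes of low genes, so a 1.2-fold difference in FPKM is not excluded for every one of the 7.

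Polrmt, the mitochondrial RNA polymerase, came closest to a call after H/R. It was at 7.44, 6.99 and 7.33 FPKM in Sham and at 5.99, 6.57 and 6.58 FPKM in H/R. Every H/R library lay below every Sham library. On the log2(FPKM + 1) scale it differed by -0.16 (SE 0.049, 95% interval -0.27 to -0.05, limma adjusted p 0.0648), and an exact permutation test, two-sided, gave p = 0.1, the smallest that 3 against 3 allows. Over the 18 other settings tried, its limma adjusted p ran from 0.047 to 0.167 and was under 0.05 in 2, while its change stayed under 1.2-fold.

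Pnpt1 was at 9.77, 9.90 and 9.37 FPKM in Sham and at 10.3, 9.96 and 10.9 FPKM in H/R. The groups did not overlap either, but the change was small, 0.09 (SE 0.043, 95% interval -0.01 to 0.19, limma adjusted p 0.208, exact permutation p 0.1). Polrmt and Pnpt1 were thus 2 of 8 members whose groups did not overlap, against 33.6% of all genes. Tefm was at 5.15, 6.03 and 6.06 FPKM in Sham and 6.30, 6.41 and 5.96 in H/R, with overlapping groups and a change of 0.10 (95% interval -0.04 to 0.24, limma adjusted p 0.322). The ratio of Tefm to Polrmt, the elongation factor against its polymerase, was 0.693 to 0.862 in Sham libraries and 0.906 to 1.05 in H/R libraries. That ratio was chosen after the values were seen and is a description.

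The other 5 members overlapped between H/R and Sham. The changes were 0.08 for Tfam (95% interval -0.09 to 0.25, limma adjusted p 0.537), -0.03 for Tfb2m (-0.19 to 0.13, adjusted p 0.846) and -0.04 for Lrpprc (-0.13 to 0.05, adjusted p 0.524). Polg had a change of -0.0048 (95% interval -0.12 to 0.11, limma adjusted p 0.967) and Supv3l1 of 0.02 (-0.09 to 0.14, adjusted p 0.834). The signs of Tfb2m and Polg after H/R depended on the scaling. Exact permutation p values for these 5 genes were between 0.2 and 1.0.

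The comparison of EGR1OV with Sham, given as a description, held the 2 large differences. Over all genes 16.4% were called (9.87% higher, 6.51% lower, at 1.3-fold, or 1381 and 910 genes, which became 1059 and 1247 after quantile normalization), 45.9% had an adjusted p under 0.05 at any fold, and 55.7% had groups that did not overlap. Of the 8 members 2 met the rule for a call, Pnpt1 higher and Tfb2m lower, 5 had an adjusted p under 0.05 at any fold, and 6 did not overlap. The median change was 0.17, beside 0.02 over all genes, and after quantile normalization it was 0.07. EGR1OV against H/R, at the same 1.3-fold threshold, met the rule for the same 2 members, where 18.9% of all genes did. These comparisons share the EGR1OV libraries.

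Pnpt1, the exonuclease (polynucleotide phosphorylase) that degrades RNA in the matrix, was at 31.2, 28.7 and 29.8 FPKM in the EGR1OV libraries. All 3 lay far above the Sham and H/R libraries, the highest of which was at 10.9 FPKM. The group means were 9.68 ± 0.276 FPKM in Sham and 29.9 ± 1.23 in EGR1OV (SD, n = 3 each), a ratio of 3.09. On the log2(FPKM + 1) scale the change was 1.53 (SE 0.043) against Sham and 1.44 against H/R, and 229 of 13985 genes had a larger increase against Sham. The values rest on 544 to 1819 reads per library, and no exon base of Pnpt1 is shared with another gene in GENCODE M21. The gene (ENSMUSG00000020464) lies on chromosome 11 from 29130744 to 29161828.

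Supv3l1, the helicase that works with Pnpt1 in RNA decay, did not keep pace. It was at 7.23, 6.59 and 7.32 FPKM in Sham, 7.20, 7.20 and 7.08 in H/R and 7.81, 8.28 and 8.85 in EGR1OV. The EGR1OV libraries lay above the others, with a change of 0.21 (SE 0.051). In each library the ratio of Pnpt1 to Supv3l1 was between 1.28 and 1.54 in Sham and H/R and between 3.37 and 3.99 in EGR1OV. The messages of the helicase and the exonuclease thus stood in a different proportion in the EGR1OV libraries, and what this does to their proteins was not measured. About 8.4% of the exon bases of Supv3l1 are shared with a gene on the opposite strand.

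Tfb2m, which melts the promoter for Polrmt, was the member that was lower. It was at 10.4, 11.6 and 11.0 FPKM in Sham, 10.1, 12.1 and 10.2 in H/R and 7.80, 6.96 and 7.48 in EGR1OV. Every EGR1OV library lay below the other 6. The change was -0.51 against Sham (SE 0.07) and -0.48 against H/R, a ratio of means of 0.675 and 0.687, and 557 of 13985 genes had a lower change against Sham. The gene (ENSMUSG00000026492) lies on chromosome 1 from 179528055 to 179546267, and its values rest on 319 to 622 reads per library.

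The partners of Tfb2m at the promoter were not lower. Polrmt was at 7.79, 8.59 and 8.09 FPKM in EGR1OV, above every Sham and H/R library, with a change of 0.15 against Sham (SE 0.049) and 0.31 against H/R. Tfam was at 5.26, 5.87 and 6.17 FPKM in Sham, 5.93, 6.20 and 6.30 in H/R and 7.52, 5.97 and 6.86 in EGR1OV, which overlapped both groups, with a change of 0.20 against Sham (SE 0.076). The ratio of Tfb2m to Polrmt was 1.39 to 1.66 in Sham, 1.55 to 1.84 in H/R and 0.810 to 1.00 in EGR1OV, and that of Tfb2m to Tfam was 1.79 to 1.97, 1.61 to 1.95 and 1.04 to 1.17. Both ratios were lower in every EGR1OV library than in any other library.

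Tefm, the elongation factor, was at 7.98, 7.44 and 7.23 FPKM in EGR1OV, above the other 6 libraries. Its change of 0.34 against Sham (SE 0.061) was under the 1.3-fold threshold of 0.38, and it lay past that threshold on 2 other scales, at 0.39 with a pseudocount of 0.1 and at 0.39 on recovered reads. Polg, the DNA polymerase, was at 5.68, 5.85 and 6.25 FPKM in EGR1OV against 5.12 to 5.58 in Sham, a change of 0.12 (SE 0.052). Lrpprc, the messenger-stabilising protein, was at 9.43, 9.07 and 9.85 FPKM in EGR1OV against 9.38, 8.99 and 9.66 in Sham, a change of 0.02 (SE 0.04) whose sign turned with the scaling. Its groups overlapped, and its 3 group means lay between 9.03 and 9.45 FPKM.

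**Figure D2:**
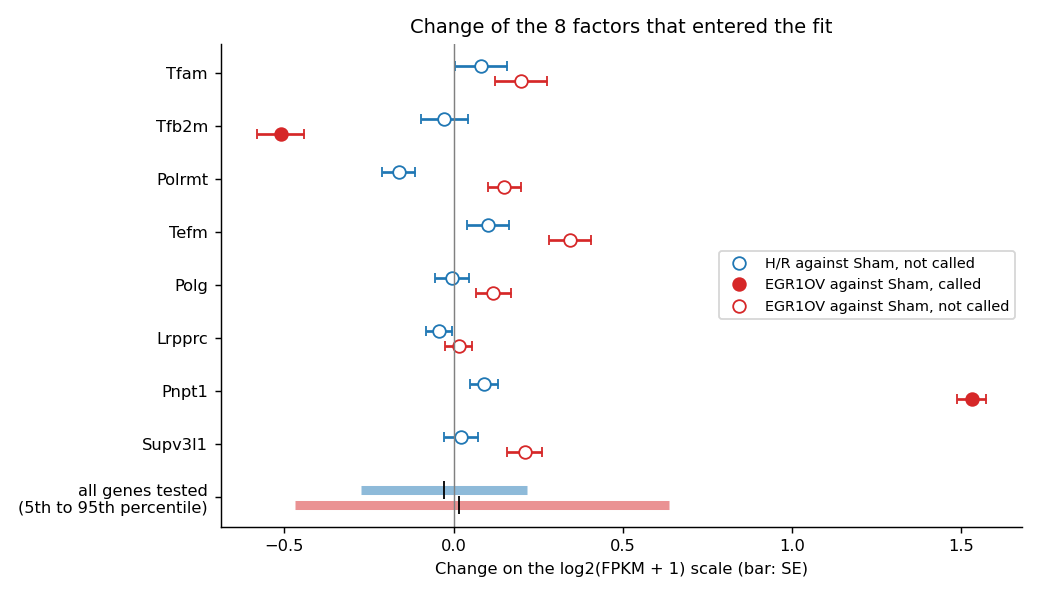
Change on the log2(FPKM + 1) scale, with its SE, of the 8 factors that entered the fit, for H/R against Sham (blue) and EGR1OV against Sham (red), with filled points for called genes and a bar below for the 5th to 95th percentile of all genes tested. Pnpt1 at 1.53 and Tfb2m at -0.51 in EGR1OV are the filled points, and no H/R point lies beyond -0.16 to 0.10.

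Pnpt1 is also known as a gene that type I interferon induces, so a list of 20 interferon-response genes was set beside it. All 20 were higher in EGR1OV than in Sham, with changes from 2.08 to 7.29 and a median of 4.43, and this held under both other scalings. Ifih1 (MDA5), a sensor of double-stranded RNA, was at 2.92 ± 0.306 FPKM in Sham and 34.2 ± 1.04 in EGR1OV (SD, n = 3 each), a change of 3.17. Ddx58 (RIG-I), a second sensor, went from 8.03 ± 0.983 to 59.7 ± 1.35 FPKM, a change of 2.75. The change of Pnpt1, 1.53, was thus smaller than that of any gene of the list. After H/R 0 of the 20 were called, with a median change of -0.07. The part of the interferon response in the level of Pnpt1 was not tested.

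**Figure D3:**
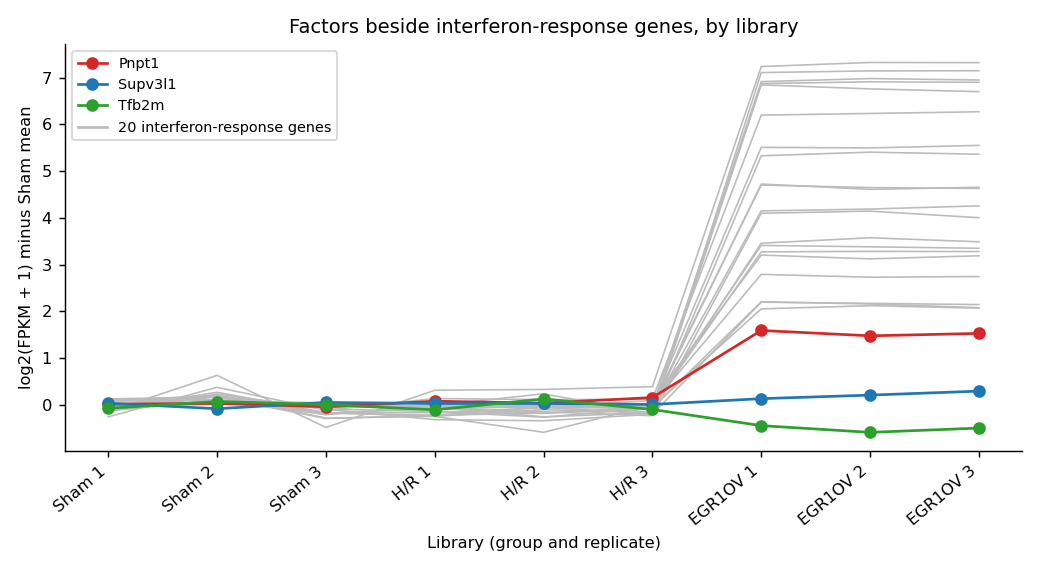
Level of Pnpt1, Supv3l1, Tfb2m and 20 interferon-response genes in each library, as log2(FPKM + 1) minus the Sham mean of the gene. In the 3 EGR1OV libraries the interferon-response genes and Pnpt1 stand above their Sham mean, Supv3l1 stays near it and Tfb2m lies below it.

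The genes whose pattern over the 9 libraries was most like that of each of the 2 factors are given by Pearson's r on log2(FPKM + 1), as a description, since all points share the contrast of EGR1OV with the rest. For Pnpt1 they were Ehf, an epithelial ETS factor (r = 0.9995), Gbp2, an interferon-inducible GTPase (0.999), and Ifi204, an interferon-inducible DNA-binding protein (0.9983), and 1135 genes in all had an r above 0.95. Ehf was at 3.90 ± 0.112 FPKM in Sham and 14.8 ± 0.674 in EGR1OV (SD, n = 3 each). For Tfb2m they were Rbmx, an RNA-binding protein (0.9932), Slc39a10, a zinc transporter (0.9831), and 1810011H11Rik (0.9824), with 130 genes above 0.95. Rbmx was at 12.0 ± 0.436 FPKM in Sham and 9.26 ± 0.29 in EGR1OV (SD, n = 3 each).

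The transcripts that these factors make and degrade are the readout that led to their choice, and their values are given as a description. The 13 mitochondrial messengers summed to 16919 ± 541, 16564 ± 240 and 9844 ± 476 FPKM in Sham, H/R and EGR1OV (SD, n = 3 each). All 12 that passed the filter were lower in EGR1OV than in Sham as deposited, with a median of -0.90, and 11 were after quantile normalization, while mt-Atp8, with 0 to 2 reads, did not pass. The lowest change was that of mt-Cytb, the apocytochrome b of complex III, at -1.26 (2753, 2793 and 2890 FPKM in Sham, 1197, 1113 and 1206 in EGR1OV). The messenger with the smallest difference was mt-Co1, a catalytic subunit of complex IV, at -0.52 (7157, 7070 and 7490 FPKM in Sham, 5333, 4984 and 4869 in EGR1OV). After quantile normalization mt-Co1 was the 1 messenger of 12 without a call, at 0 against Sham and 0.39 against H/R, while the other 11 stayed lower. That scaling gives each rank the same value in every library. A gene that keeps its rank cannot differ under it, so the 0 of mt-Co1 does not show an equal level. Only 7 messengers had at least 1000 reads in every library, and these had a median of -0.95. The other 6, mt-Co2, mt-Atp8, mt-Atp6, mt-Co3, mt-Nd3 and mt-Nd4l, had far fewer reads (0 to 541 per library), and their values are uncertain. How the counting treated reads shared with near-identical copies was not stated.

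The only messenger of the light strand, mt-Nd6, was at 695, 664 and 730 FPKM in Sham and 395, 311 and 308 in EGR1OV, a change of -1.05 (SE 0.089). Without a stated strand in the counting, its reads cannot be told from those of the opposite strand. The ribosomal RNAs, which are read from the same heavy-strand promoter as most messengers, were not lower than in Sham. Their Sham means, 136 FPKM for mt-Rnr1 and 138 for mt-Rnr2, were far below the 2812 of mt-Cytb. The study's methods do not say how RNA was selected for sequencing. Changes of the ribosomal RNAs may therefore not be comparable with those of the messengers. mt-Rnr1 (12S) was at 133, 134 and 141 FPKM in Sham, 145, 150 and 153 in H/R and 458, 366 and 388 in EGR1OV, a change of 1.56 in EGR1OV (SE 0.071). mt-Rnr2 (16S) was at 137, 136 and 142 FPKM in Sham, 143, 163 and 173 in H/R and 168, 137 and 142 in EGR1OV, with overlap between EGR1OV and Sham and a change of 0.10 (SE 0.083). Pnpt1 and mt-Rnr1 were thus higher, and Tfb2m and the well-covered messengers lower, in the same 3 libraries. For mt-Co1 this held as deposited and after median-ratio scaling, while quantile normalization could not show it. A link between these changes was not tested. After H/R 0 of 12 messengers and 0 of 2 ribosomal RNAs were called, and the median change of the messengers was -0.01.

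**Figure D4:**
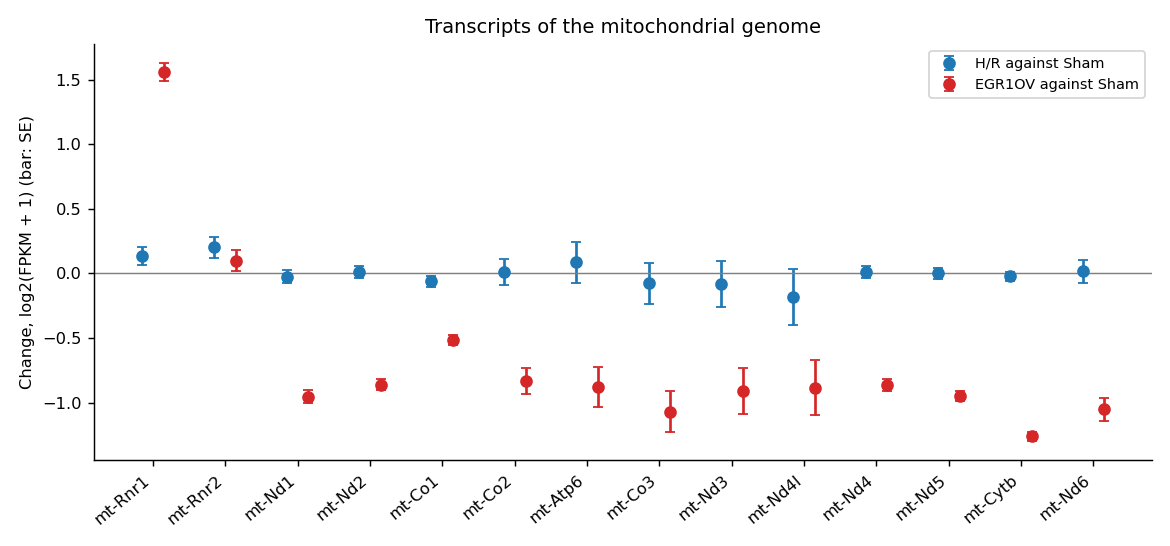
Change on the log2(FPKM + 1) scale, with its SE, of 12 messengers and 2 ribosomal RNAs of the mitochondrial genome in H/R (blue) and EGR1OV (red) against Sham. In EGR1OV the messengers lie between -1.26 and -0.52 and mt-Rnr1 lies at 1.56, while the H/R points lie between -0.18 and 0.20.

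Another 65 nuclear genes of mitochondrial gene expression were listed to set the members against the rest of the pathway, and 61 passed the filter (Ppargc1b, Esrrb, Esrrg and Ppara did not). After H/R 0 of the 61 were called, with a median change of -0.03, the same as over all genes. At any fold, 5 had an adjusted p under 0.05, where 11.7% of all genes did. Rexo2, an exonuclease that clears short RNAs left over from decay, was one of these at -0.25 (SE 0.034, limma adjusted p 0.00276). It was at 39.8, 37.5 and 40.3 FPKM in Sham, 33.4, 32.3 and 32.4 in H/R and 25.7, 26.8 and 25.6 in EGR1OV, so the 3 groups did not overlap. Rexo2 was called after H/R when Sham replicate 2 (or H/R replicate 1) was left out, since its change lies close to the 1.2-fold threshold. The others were Atad3a (0.19, limma adjusted p 0.0244), Nsun2 (0.20, 0.0358), Lonp1 (-0.12, 0.0433) and Fastk (-0.20, 0.0214).

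In EGR1OV 7 of the 61 met the rule for a call, 6 higher and 1 lower, where 16.4% of all genes did. The lower one was Rexo2, at -0.57 (SE 0.034), a second RNA decay factor beside Pnpt1 that differed, in the other direction. The higher ones with the largest change were Trit1, a tRNA modifying enzyme (0.55, SE 0.055), Perm1, a regulator of oxidative metabolism (0.54, SE 0.077), Mrm3, a methyltransferase of the 16S ribosomal RNA (0.52, SE 0.099), and Lonp1, the matrix protease that degrades Tfam among other proteins (0.51, SE 0.032). Lonp1 was at 29.5, 30.5 and 30.9 FPKM in Sham and 43.2, 45.0 and 42.4 in EGR1OV. Ddx28, an RNA helicase (0.40), and Top1mt, the mitochondrial topoisomerase (0.39), were also higher, and neither met the rule after median-ratio scaling or quantile normalization.

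By role, 0 of 7 further transcription factors were called in EGR1OV, with a median change of -0.03. Mterf1b, a member of the mitochondrial termination factor family, had a ratio of means of 0.673 to Sham with groups that did not overlap, at 0.572 to 0.825 FPKM in EGR1OV and 0.922 to 1.16 in Sham, and it met the call rule with a pseudocount of 0.1. Of 10 replication and nucleoid genes 2 were called higher, of 17 RNA processing and modification genes 2 higher, and of 17 polyadenylation, stability and RNA granule genes 1 higher and 1 lower. Of 10 nuclear regulators 1, Perm1, was called higher. The median over the 61 genes was 0.08 as deposited and 0.0015 after quantile normalization, and no direction was read for the list as a whole.

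**Figure D5:**
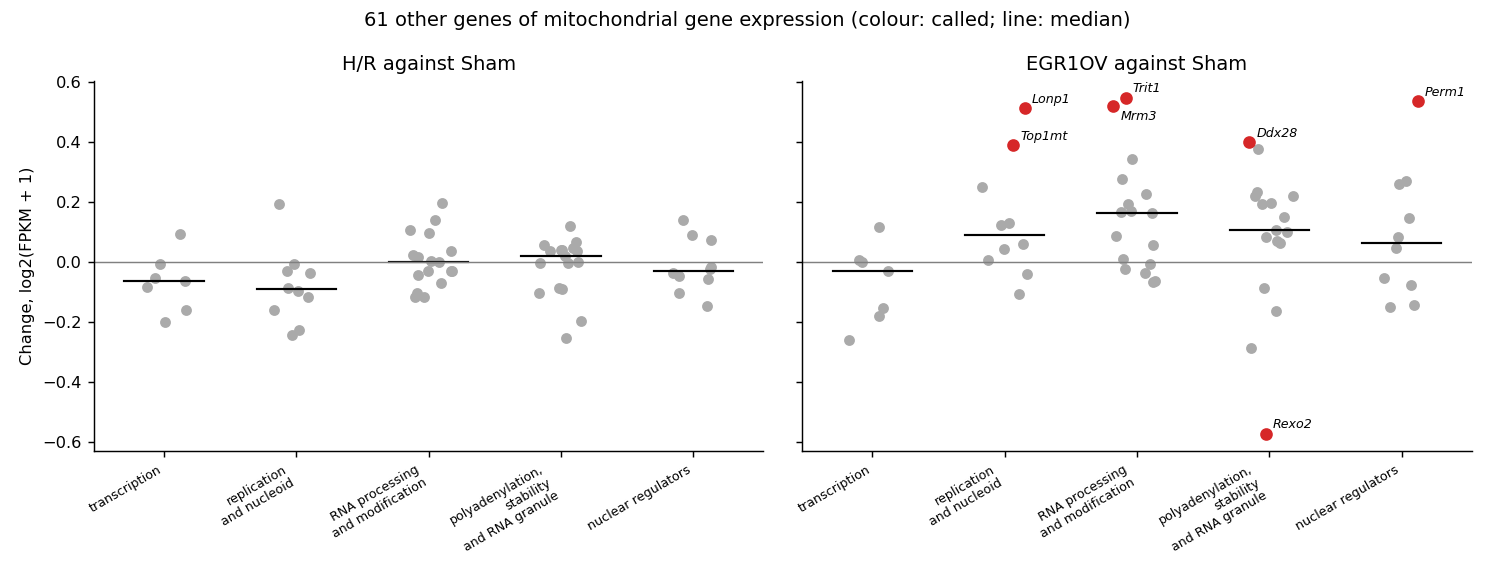
Change on the log2(FPKM + 1) scale of 61 further genes of mitochondrial gene expression by role, in H/R (left) and EGR1OV (right) against Sham, with coloured points for called genes and a line for the median of each role. No point is coloured for H/R, and for EGR1OV 6 coloured points lie between 0.39 and 0.55 and Rexo2 lies at -0.57.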

How the data were processed

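RNA sequencing covered 9 libraries of mouse primary TECs, 3 per group, named in the titles. The deposited values are FPKM in 1 table, which the authors gave for each library separately. The submitters' processing notes name Bowtie2 2.2.3, HISAT2 2.1.0, TopHat2 and the build mm9 with no roles, yet 94.7% of gene positions equal GENCODE M21 (GRCm38), so coordinates follow the table. The counting tool and its use of strand are not given in the sources used here. Symbols turned into dates were restored in 26 rows.

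Reads were recovered from FPKM and exon length, and 94.0% of 162961 values of 1 to 1000 reads were whole within 0.02 reads. Values were fitted as log2(FPKM + 1), which understates changes of low genes, for 13985 genes whose mean reached 0.5 FPKM, in 1 limma fit of all 9 libraries (3.58.1, R 4.3.3, eBayes with trend, two-sided, Benjamini-Hochberg over all genes). Calls needed an adjusted p under 0.05 and 1.2-fold for H/R, a threshold of the study, or 1.3-fold for EGR1OV. Python 3.11.15 made the other values, and the code was tested on simulated data. Named genes were all 10 members, the extremes of the mitochondrial transcripts with mt-Nd6, Ifih1 and Ddx58, the 3 genes most like Pnpt1 and Tfb2m, and up to 4 called pathway genes per direction. Ddx28, Top1mt, Mterf1b, mt-Rnr2, single markers and the H/R genes without a call were added after their values were seen. The members and lists were chosen with earlier results of these data known. Alternatives were a pseudocount of 0.1, no filter, a filter at 5 FPKM, scaling by median ratios or quantiles, the replicate block, no trend, only the groups compared, no fold threshold, voom on recovered reads and each library left out.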

Additional observations from a re-analysis of the deposited data

How the results depend on the processing

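Pnpt1 and Tfb2m met the rule for a call in EGR1OV under each of the 18 other fits, with changes against Sham of 1.45 to 1.62 and -0.62 to -0.47, and 0 of 8 members were called after H/R in any of them. With no fold threshold 5 members passed in EGR1OV against Sham and 5 against H/R. In the pathway list after H/R, 5 genes passed with no fold threshold, 1 (Dna2) with voom on recovered reads, and 0 to 1 (Rexo2) with single libraries left out. In EGR1OV 11 passed with a pseudocount of 0.1, 4 with a mean of at least 5 FPKM and 25 with no fold threshold. Over the whole table a mean of at least 5 FPKM gave 372 genes for H/R, 1315 for EGR1OV and 1520 for EGR1OV against H/R, no fold threshold gave 1635, 6417 and 7135, and voom gave 995 for H/R.

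The sign turned for 5 members. After H/R, Tfb2m was at 0.0091 with median-ratio scaling and at -0.10 to 0.0127 with single libraries left out, Polg at 0.0289 and 0.0294 with median-ratio and quantile scaling and at -0.0348 to 0.0337, and Supv3l1 at -0.0204 to 0.0465. In EGR1OV against Sham, Lrpprc was at -0.0073 and -0.0865 with the same scalings and at -0.0123 to 0.0415. Against H/R, Lrpprc was at -0.00022 and -0.0758, and Tfam at -0.0030 with quantile scaling (0.12 as deposited). Tefm passed the threshold in EGR1OV with a pseudocount of 0.1 and with voom, at 0.39 each. The cause was not tested.

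Same-numbered libraries did not deviate together in every pair (correlations of -0.195 to 0.263), so the numbers were not taken as pairs. With the replicate block 516 genes were called after H/R (594 without it), 2309 in EGR1OV and 2654 in EGR1OV against H/R, and 0, 2 and 2 members. The block changed no call among the members. Depth limits what can be seen for Ppargc1a.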
